A study of Mus musculus with 16 samples.

Results

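The genes described here write, copy, read and remove DNA methylation: Dnmt1, Dnmt3a, Dnmt3b, Dnmt3l, Uhrf1, Tet1, Tet2, Tet3, Trim28 and Setdb1. They were followed in mouse blastocysts cultured with inhibitors of the MAP kinase pathways. Every probe set whose platform annotation names 1 of these 10 genes and no other was taken, which gave 25 of the 45037 probe sets measured in all samples, for 10 of 18193 named genes. Of these, 18 are on the 430A array and 7 on the 430B array, and the 430 2.0 array carries all 25.

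The 4 groups were blastocysts treated with 20 µM SB203580 (labelled SB), an inhibitor of p38 kinases, with 25 µM SP600125 (labelled SP), an inhibitor of JNK, or with 20 µM U0126 (labelled U), an inhibitor of MEK, and blastocysts labelled WT for which no treatment is named. The WT embryos served as the controls. The labels used here do not state whether they received the solvent, nor the strain of the embryos. Whether replicates came from separate cultures is also not stated, and a p-value here refers only to the spread among the samples at hand, which may be technical. Each group had 3 samples. Replicate 1 was labelled by a small sample assay and read on a 430A and a 430B array, and replicates 2 and 3 were labelled by a two-cycle assay and read on 430 2.0 arrays, so every difference was taken within 1 array type.

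Dnmt1 copies methylation onto the new strand after replication, and Uhrf1 brings it to hemimethylated sites. Dnmt3a and Dnmt3b place methylation on unmethylated DNA, and Dnmt3l, which has no catalytic activity of its own, stimulates both. Tet1, Tet2 and Tet3 oxidise 5-methylcytosine, the first step of active removal. Trim28, recruited by KRAB zinc finger proteins, and the H3K9 methyltransferase Setdb1 silence retroelements and keep imprints methylated while the rest of the embryo's genome is being demethylated. The blastocyst is the stage at which global methylation is lowest and at which the de novo enzymes appear in the inner cell mass. In mouse embryonic stem cells, MEK inhibition is known to lower Dnmt3b and Dnmt3l, and this is the reason for setting the U0126 embryos against the others.

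The deposited values are signal intensities on a linear scale, and each array had been scaled to a trimmed mean of 500. The median signal of the 430 2.0 arrays was 66.2 and 68.9 in SB, 61.5 and 66.5 in SP, 77.7 and 83.0 in U, and 61.1 and 65.7 in WT. Among these arrays those of U were the brightest at the median. On the 430A arrays the median was 131.6 in SB, 145.2 in SP, 132.7 in U and 147.4 in WT, with U below SP and WT. The ratio of the 3' to the 5' actin control, a sign of RNA length and labelling, spread from 1.62 to 3.66 over the 430A arrays (SB 2.81, SP 3.66, U 1.62, WT 2.47) and from 1.58 to 1.75 over the 430 2.0 arrays. All 8 trophectoderm, 8 inner cell mass and 9 primitive endoderm markers passed the filter on dim probe sets, as did 1 of 7 measured cumulus cell, 2 of 6 uterine and oviduct and 3 of 7 blood and immune cell markers. The 3 blood and immune cell markers were above WT in SB, SP and U, with medians of 0.41, 0.47 and 0.35, and 0 were called. The 2 uterine and oviduct markers had medians of -0.50, 0.26 and -0.34, and the cumulus cell marker stood at 0.18, -0.12 and -0.21, none called. Genes induced by ERK served as a check of U0126: Dusp6, a phosphatase that acts on ERK, read 61.0, 267.2 and 209.3 in U, against 523.6, 1006.6 and 897.5 in WT, a log2 change of -2.26 ± 0.29 (SE, limma adjusted p = 0.00146). Of the 7 listed ERK output genes, 2 fell in U (Dusp6 and Dusp4), 1 fell in SP (Dusp4) and 1 rose in SB (Egr1). In U against WT, 5 of the 7 were negative and 2 positive, with 0 called higher. Etv5 went the other way from Dusp6, with 3983.8, 1028.8 and 1262.1 in U against 2793.0, 712.2 and 960.3 in WT. The Egr1 call was lost without SB replicate 2 or 3 or WT replicate 2 or 3 (adjusted p 0.149 to 0.198), with an offset of 1 (adjusted p = 0.0603), with only SB and WT fitted (adjusted p = 0.0554) and without the intensity trend (adjusted p = 0.275). The Dusp4 call in SP was lost without WT replicate 2 (adjusted p = 0.0549) and without the trend (adjusted p = 0.16). In U, the Dusp6 and Dusp4 calls were lost only without the trend (adjusted p = 0.125 and 0.122). Scaling the arrays to a common median instead put the median log2 change of all probe sets in U against WT at -0.11, where it was 0.06 as deposited. Under that scaling, U minus WT was -0.52 and -0.65 for the Dnmt3b probe sets and -0.11 for Dnmt3l.

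The de novo genes carry the results below, and the promoters of Dnmt3b and Dnmt3l are shown because they differ in how many CpG sites, the substrate of these enzymes, they hold. Both were taken from RefSeq (GRCm38.p6) as the 200 bases from 250 to 51 before the start, 5′ to 3′ on the plus strand, with each CpG in capitals. The Dnmt3b window, chr2:153649199-153649398, holds 15 CpG sites, and 17.8 percent of 32851 windows of this length hold as many or more. The window of the first Dnmt3l start, chr10:78042037-78042236, holds 3, which 63.6 percent of windows reach, and the windows of the other Dnmt3l starts hold 2 each.
Dnmt3b: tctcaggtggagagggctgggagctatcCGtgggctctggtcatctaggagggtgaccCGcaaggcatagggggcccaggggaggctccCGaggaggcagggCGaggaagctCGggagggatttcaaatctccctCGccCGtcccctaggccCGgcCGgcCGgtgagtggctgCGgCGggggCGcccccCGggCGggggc
Dnmt3l: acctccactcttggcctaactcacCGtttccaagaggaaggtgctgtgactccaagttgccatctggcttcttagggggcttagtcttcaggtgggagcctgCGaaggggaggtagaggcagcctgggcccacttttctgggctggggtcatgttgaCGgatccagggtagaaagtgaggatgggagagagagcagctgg
Neither window holds CCGGAAG, a core bound by ETS factors that ERK phosphorylates, on either strand, and it is in 3.98 percent of all windows. Nor do they hold the AP-1 site TGACTCA (3.61 percent of windows) or TGACGTCA (0.83 percent).

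Dnmt3l differed between the inhibitors. Its signal in replicates 1, 2 and 3 was 737.6, 3282.3 and 3241.6 in SB, 857.0, 3173.6 and 2887.0 in SP, 2101.0, 3852.3 and 4517.4 in U, and 1760.1, 4585.6 and 4231.1 in WT. Within each array type, every SB and SP value lay below every U and WT value, while the U and WT values overlapped. SP embryos had 0.601 times the Dnmt3l signal of U embryos, a log2 difference of -0.73 ± 0.18 (95% interval -1.12 to -0.35), with an adjusted p of 0.0389 by limma over 27022 probe sets. This was the 1 call among the 24 tested member probe sets over the 6 comparisons, in the comparison with the most calls: 2.93 percent of all probe sets were called between SP and U, and 1.49 percent were called lower in SP.

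The other differences of Dnmt3l did not pass. SB minus U was also -0.73 ± 0.18 on the log2 scale (adjusted p = 0.0578). SB minus WT was -0.70 ± 0.18 with an interval from -1.09 to -0.32 (adjusted p = 0.129), and SP minus WT was -0.70 ± 0.18 with the same interval (adjusted p = 0.126). U minus WT was 0.03 ± 0.18, and its interval, from -0.35 to 0.42, does not reach a log2 loss of 1. SB and SP differed by 0.00 ± 0.18 (interval -0.39 to 0.39). In order of level, U and WT stood together above SB and SP, and within neither pair did the signals differ beyond their spread.

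The Dnmt3l differences were larger in replicate 1, read on the 430A array, than in replicates 2 and 3. Replicates 2 and 3 were each set against the mean log2 signal of the other group's 430 2.0 arrays, not against the same-numbered array. SP minus U was -1.28 on the log2 scale in replicate 1, against -0.39 and -0.53 in replicates 2 and 3. SB minus WT was -1.24 in replicate 1 and -0.42 and -0.44 in the others, and SP minus WT was -1.03, -0.47 and -0.61. On the 430A arrays of replicate 1 the actin 3' to 5' ratio was 3.66 in SP and 2.81 in SB, against 1.62 in U and 2.47 in WT. The same ratio for Gapdh was 3.46 in SP and 3.17 in SB, against 2.61 in U and 4.03 in WT, so here WT was the highest. The part of either in the difference was not tested. With the 8 arrays of type 430 2.0 alone, SP minus U was -0.46 (adjusted p = 0.148), and without U replicate 1 it was -0.48 (adjusted p = 0.162). The call was lost on leaving out any 1 of SP replicate 1, 2 or 3 (adjusted p = 0.16, 0.0672 and 0.112), U replicate 1, or U replicate 3 (adjusted p = 0.0831), and was kept without U replicate 2 (adjusted p = 0.0232). Over all alternatives SP minus U ran from -0.90 to -0.46, below 0 in 17 of 17. The call also rests on the scaling: with arrays scaled to a common median it was -0.59 (adjusted p = 0.175). Dnmt3l is read by 1 probe set, 1425035_s_at, whose suffix marks probes that match more than 1 transcript.

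**Figure D1:**
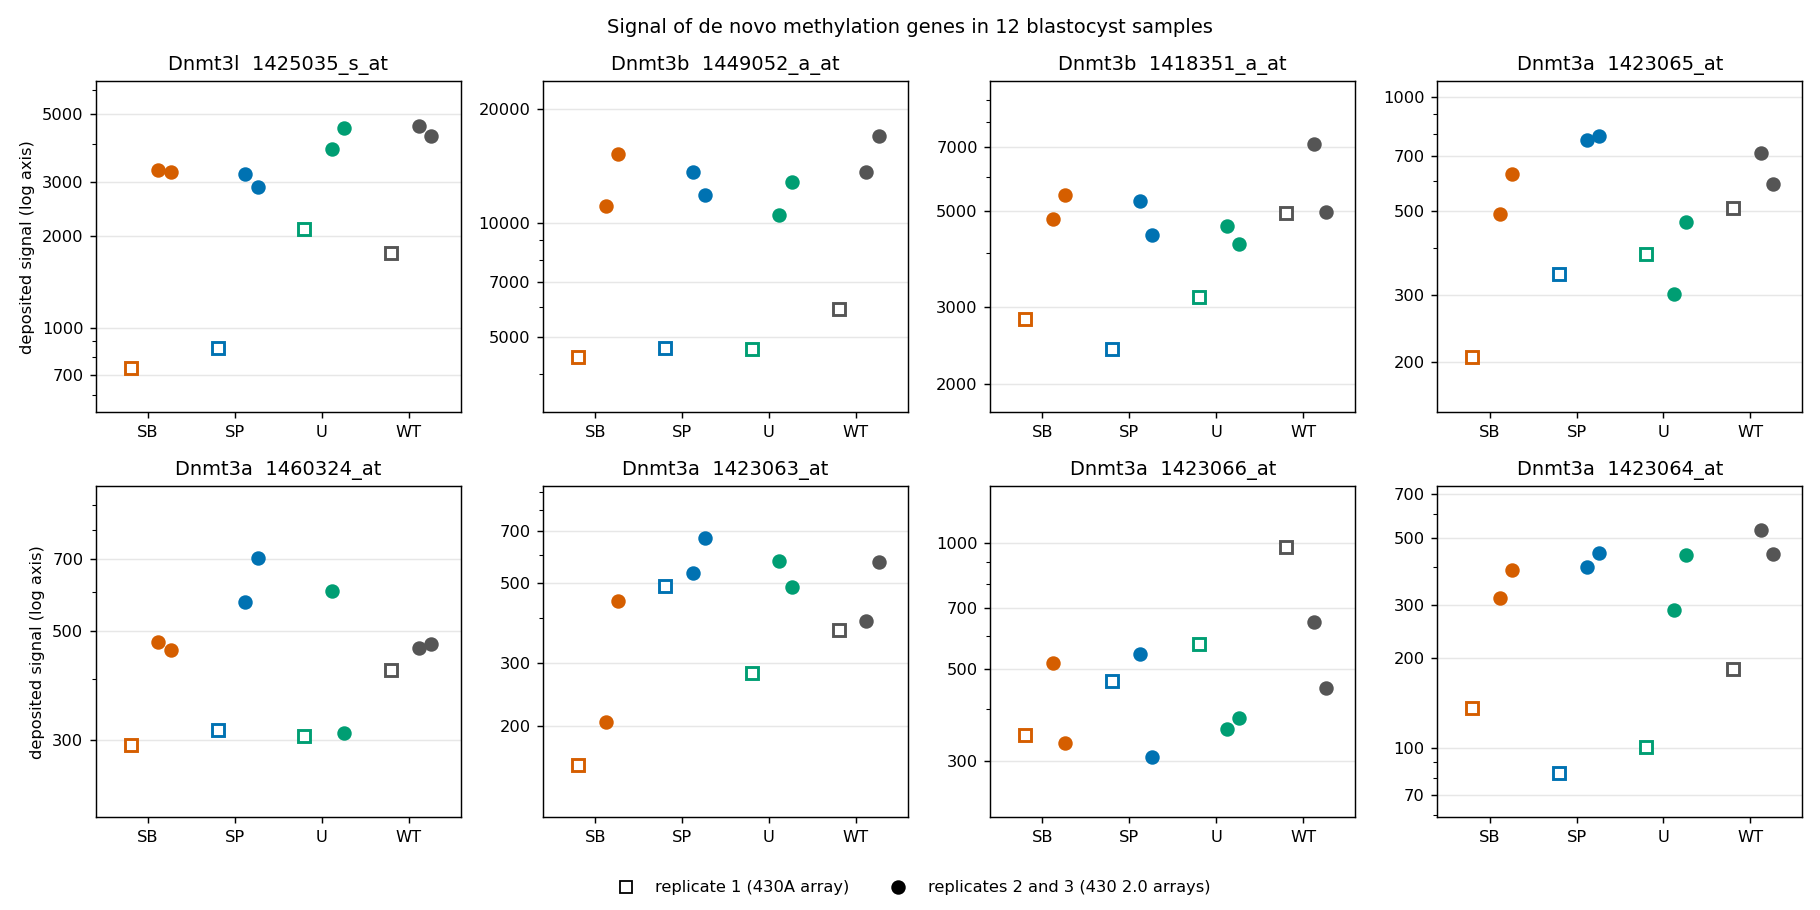
Deposited signal (linear units, log axis) of the Dnmt3l probe set, both Dnmt3b and all 5 Dnmt3a probe sets in each sample, by group with SB, SP and U left of WT; marker shapes separate the array types, whose levels are not comparable. For Dnmt3l the SB and SP points lie below the U and WT points of the same array type, as in replicate 2 with 3282.3 in SB and 3173.6 in SP against 3852.3 in U and 4585.6 in WT.

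Dnmt3b is the main de novo enzyme of the early embryo and was among the brighter transcripts: its probe sets exceeded 98.7 and 96.2 percent of all probe sets on the 430 2.0 arrays. The brighter, 1449052_a_at, read 4425.0, 11072.1 and 15162.5 in SB, 4680.7, 13612.4 and 11817.8 in SP, 4643.5, 10479.9 and 12852.9 in U, and 5933.4, 13635.3 and 16916.1 in WT. The WT value of each replicate was the highest, and the SP and U groups did not overlap WT. The other probe set, 1418351_a_at, read 2821.1, 4801.6 and 5436.8 in SB, 2402.5, 5256.5 and 4390.9 in SP, 3159.0, 4611.1 and 4205.4 in U, and 4932.9, 7112.4 and 4972.0 in WT. Here the U group alone lay wholly below WT.

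None of these differences was called. U minus WT was -0.38 ± 0.13 for the brighter probe set (interval -0.65 to -0.10, adjusted p = 0.238) and -0.50 ± 0.16 for the other (interval -0.84 to -0.16, adjusted p = 0.197). SP minus WT was -0.29 ± 0.13 and -0.55 ± 0.16 (adjusted p = 0.552 and 0.206), and SB minus WT was -0.29 ± 0.13 and -0.41 ± 0.16 (adjusted p = 0.474 and 0.383). These intervals too lay below 0. They ran from -0.56 to -0.02 and from -0.89 to -0.21 in SP. In SB they ran from -0.56 to -0.02 and from -0.75 to -0.08. The 3 comparisons share the WT samples and are not independent. Between the inhibitors the Dnmt3b differences were smaller: SP minus U was 0.09 ± 0.13 and -0.05 ± 0.16, with intervals inside -0.39 to 0.36, and SB minus SP was -0.01 ± 0.13 and 0.14 ± 0.16. With a gene's probe sets averaged first, Dnmt3b against WT was -0.35 ± 0.12 in SB, -0.42 ± 0.12 in SP and -0.44 ± 0.12 in U (adjusted p = 0.23, 0.142 and 0.0975 over 12614 genes).

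Dnmt3a, the other de novo enzyme, was read by 5 probe sets, and none was called in any comparison. The brightest, 1423065_at, read 205.9, 491.6 and 627.3 in SB, 341.7, 768.7 and 786.6 in SP, 385.0, 302.6 and 467.9 in U, and 509.3, 709.7 and 588.9 in WT. Its U values lay below the WT values in both array types. Against WT it stood at -0.56 ± 0.28 in SB, -0.01 ± 0.28 in SP and -0.64 ± 0.28 in U, with adjusted p of 0.566, 0.999 and 0.37.
All 5 probe sets had negative log2 values in SB, from -0.81 to -0.16, and in U, from -0.64 to -0.02. In SP they ran from -0.61 to 0.35. Probe sets of 1 gene read the same RNA and are not replicates of each other. The widest Dnmt3a difference lay between inhibitors: 1423063_at read 155.7, 205.5 and 446.3 in SB, against 491.9, 536.2 and 668.2 in SP. The groups did not overlap, with SB minus SP at -1.16 ± 0.28 (interval -1.74 to -0.58, adjusted p = 0.065).

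The maintenance genes showed no call in any comparison. The brightest Dnmt1 probe set, 1435122_x_at, read 879.4, 937.2 and 730.1 in SB, 727.3, 1130.3 and 1076.0 in SP, 625.0, 876.3 and 1252.0 in U, and 734.5, 1403.8 and 845.0 in WT, and all groups overlapped. Its log2 values against WT were -0.18, 0.01 and -0.11 in SB, SP and U (SE 0.22 each). A dimmer Dnmt1 probe set, 1447877_x_at, went to -0.69 ± 0.28 in U (adjusted p = 0.324), while 1422946_a_at stood at 0.15 ± 0.20, so the Dnmt1 probe sets disagreed in sign under U0126.
Uhrf1 did the same. Its brightest probe set, 1415810_at, read 932.4, 1996.1 and 2235.2 in SB, 893.9, 1515.7 and 3430.4 in SP, 1066.7, 2213.9 and 2236.2 in U, and 825.4, 2474.7 and 1660.3 in WT. Against WT its values were 0.10, 0.15 and 0.21 (SE 0.22 each). The dimmer 1415811_at lay below WT without overlap in all 3 inhibitor groups, at -0.28, -0.31 and -0.25 (SE 0.25 each), and its intervals ran across 0.

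Of the oxidising enzymes, Tet1 and Tet2 did not pass in any comparison. Tet1 1455425_at read 5901.9, 1064.5 and 1271.9 in SB, 5871.1, 1526.8 and 1288.0 in SP, 4285.5, 1546.7 and 1115.4 in U, and 5080.2, 1622.2 and 1234.5 in WT. Against WT this gave -0.11, 0.06 and -0.15 (SE 0.17 each), and the interval in U ran from -0.51 to 0.20, short of a log2 loss of 1. Tet1 1429448_s_at and 1419896_at also stayed within 0.32 of WT on the log2 scale.
The dimmest Tet1 probe set, 1419897_at, read 61.9, 56.4 and 88.2 in U, against 8.7, 33.1 and 29.1 in WT. Its log2 difference of 1.22 ± 0.55 did not pass (adjusted p = 0.384), while the 3 brighter Tet1 probe sets stood at -0.15, 0.29 and 0.11. With its probe sets averaged, Tet1 in U was 0.37 ± 0.16 against WT (adjusted p = 0.317).
Tet2 1438781_at read 8433.8, 3537.6 and 2955.5 in SB, 7712.0, 2799.2 and 2525.7 in SP, 5953.9, 3356.8 and 3733.4 in U, and 9077.6, 2743.0 and 2227.5 in WT. The SB and U values were above WT on the 430 2.0 arrays and below it in replicate 1, with fitted values of 0.22, -0.01 and 0.14 in SB, SP and U (SE 0.18 each). Tet3, the enzyme that oxidises the paternal genome in the zygote, was the 1 member below the filter. Its single probe set read 402.4, 9.8 and 17.6 in SB, 171.5, 50.7 and 18.4 in SP, 300.0, 7.6 and 8.8 in U, and 445.6, 12.9 and 45.1 in WT, and on the 430 2.0 arrays it exceeded 21.2 percent of probe sets.

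Trim28 gave the narrowest intervals of the set, and neither it nor Setdb1 was called in any comparison. Trim28 1456308_x_at read 74727.6, 13402.7 and 14595.5 in SB, 68943.9, 14784.5 and 13786.3 in SP, 72325.3, 15317.9 and 14892.8 in U, and 69118.3, 13559.1 and 15306.4 in WT. Its values against WT were 0.01, -0.01 and 0.07 (SE 0.09 each), and all 3 intervals lay within -0.19 to 0.25. Trim28 1415869_a_at stood at -0.24 ± 0.11 in SP (adjusted p = 0.555).
Setdb1 1451833_a_at read 1581.3, 1671.2 and 1612.7 in SB, 1493.1, 1767.9 and 1436.0 in SP, 1314.5, 1633.8 and 1781.8 in U, and 1316.8, 1528.4 and 1892.6 in WT. Its values were 0.05, -0.00 and 0.00 (SE 0.14 each), with intervals inside -0.31 to 0.36. The dim Setdb1 probe sets had SE of 0.41 and 0.55 and set no useful limit.

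**Figure D2:**
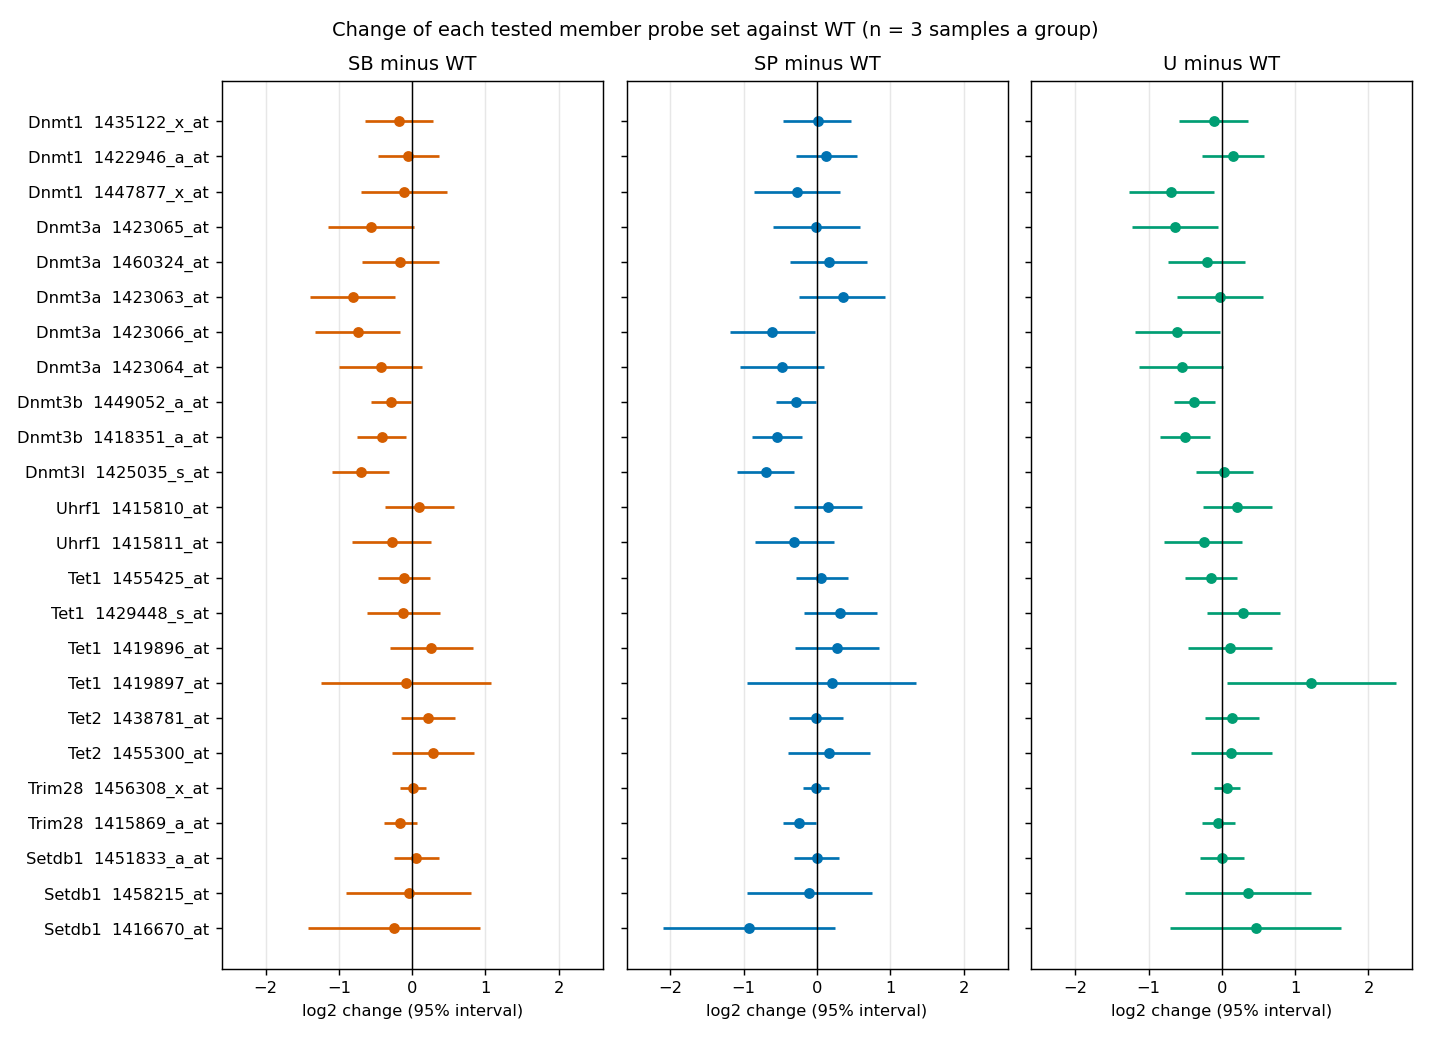
Fitted log2 change (x axis) with its 95% interval for each of the 24 tested member probe sets (rows) in SB, SP and U against WT. The Dnmt3l intervals lie below 0 in SB and SP (-1.09 to -0.32) and span 0 in U (-0.35 to 0.42). The intervals of both Dnmt3b probe sets lie below 0 in SB, SP and U alike, and the brightest Trim28 probe set stays within -0.19 to 0.25.

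Counted together, limma called 0 of the 24 tested member probe sets in each comparison with WT, where it called 0.389 percent of all probe sets in SB, 0.592 percent in SP and 0.448 percent in U. At an unadjusted p under 0.05, 5 of 24 members were lower and 0 higher in SB, 5 lower and 0 higher in SP, and 5 lower and 1 higher in U, against 5.15, 4.49 and 4.92 percent of all probe sets lower and 4.21, 4.03 and 7.09 percent higher. Without overlap within array types, 3 of 24 lay below WT in SB and 3 of 24 in SP, near the 11.9 and 11.5 percent of all probe sets. In U, 7 of 24 lay below WT, beside 9.14 percent of all probe sets. Above WT without overlap lay 0 of 24 in SB, 0 in SP and 2 in U (dim probe sets of Tet1 and Setdb1), beside 11.6, 11 and 14 percent of all. The 7 lower in U came from 4 genes (3 of Dnmt3a, 2 of Dnmt3b, and 1 each of Dnmt1 and Uhrf1), and probe sets of 1 gene are not independent. The median log2 change of the 24 was -0.14 in SB, -0.01 in SP and -0.01 in U, beside 0.01, 0 and 0.06 over all tested probe sets. Between inhibitors, limma called 0 members in SB minus SP and SB minus U, where 0.788 and 1.37 percent of all probe sets were called and 1 and 3 members were lower at an unadjusted p under 0.05, beside 5.49 and 7.77 percent of all.

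The genes whose pattern over the 12 samples, centred within array type, was most like that of Dnmt3l among 12605 genes compared were Slc38a2 (Pearson r = 0.95), an amino acid transporter, Manba (r = 0.93), a lysosomal mannosidase, and Cdx1 (r = 0.93), a homeobox transcription factor. Spearman's rho was 0.95, 0.89 and 0.94. These values are descriptions over samples that share 4 groups. Cdx1 read 41.4, 113.2 and 79.7 in SB, 47.2, 146.5 and 80.2 in SP, 355.6, 334.9 and 317.6 in U, and 261.9, 518.3 and 305.0 in WT. As for Dnmt3l, its SB and SP values lay below its U and WT values in each array type, with log2 changes against WT of -2.07, -1.9 and -0.04. Slc38a2 stood at -0.78, -0.76 and -0.09, and Manba at -0.75, -0.66 and 0.13.

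**Figure D3:**
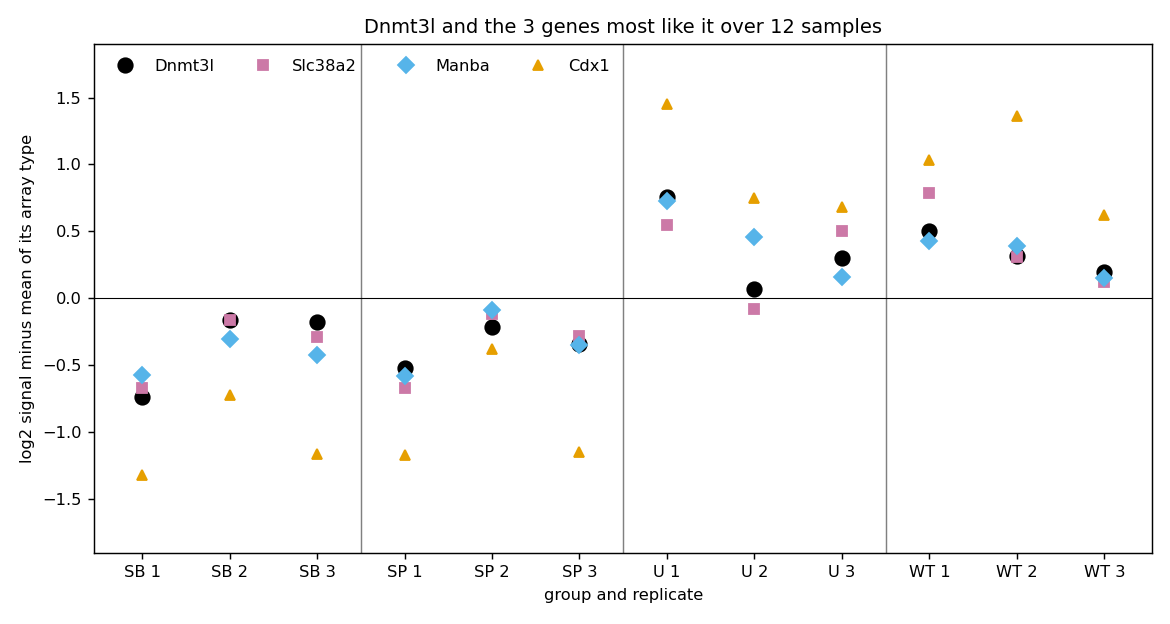
Log2 signal centred within array type (y axis) of Dnmt3l, Slc38a2, Manba and Cdx1 in each of the 12 samples (x axis), with SB, SP and U left of WT. All 4 genes sit below 0 in the 6 SB and SP samples, from -0.74 to -0.16 for Dnmt3l, and Dnmt3l is above 0 in the 6 U and WT samples, from 0.07 to 0.76.

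Markers of the embryo's cell types also differed between these groups. In bulk samples, fewer cells of a type and less RNA per cell cannot be told apart. Inner cell mass markers summed to 8167.8, 23858.9 and 23928.9 in SP, against 12491.0, 31180.0 and 29071.9 in U. Every U sum was above the SP sum, and the median log2 difference of the 8 markers, SP minus U, was -0.74, with 3 called lower (Sox2, Fgf4 and Tdgf1) and 1 higher (Nanog). The Nanog call was lost without any 1 of the SP replicates or U replicate 3 (adjusted p 0.0668 to 0.0764), with the 430 2.0 arrays alone (adjusted p = 0.0591) and without the intensity trend (adjusted p = 0.137). The Tdgf1 call was lost with median scaling (-0.56, adjusted p = 0.104) and without the trend (adjusted p = 0.11). Dnmt3l was lower in SP over the same pair. Against WT, the median of the 8 markers was 0.15 in SB and -0.06 in SP, with 0 called. Dnmt3l stood at -0.70 in both, not called. In SB minus U the median of the markers was -0.33, with 2 called lower, and Dnmt3l was at -0.73, not called. The part of the cell types in the Dnmt3l differences was not tested. Against WT, 2 of 8 inner cell mass markers rose in U (Sox2 by 0.87 ± 0.14 and Fgf4 by 1.33 ± 0.20), and the median of the 8 was 0.65, while both Dnmt3b probe sets were lower in all 3 U replicates. The Sox2 rise in U was lost with median scaling (0.72, adjusted p = 0.0906), with the 430 2.0 arrays alone (adjusted p = 0.092), without the intensity trend (adjusted p = 0.131) and without WT replicate 1 (adjusted p = 0.0513), and the Fgf4 rise without the trend (adjusted p = 0.127). Primitive endoderm markers summed to 15622.7, 24667.6 and 23628.8 in SP, against 19966.7, 30231.1 and 30826.3 in WT, and 1, 6 and 2 of the 9 fell in SB, SP and U. Much of each sum was Dab2, with 9906.6, 15021.2 and 14154.6 in SP and 11231.9, 14735.4 and 14571.2 in WT. The medians of the 9 against WT were -0.51 in SB, -1.33 in SP and -0.60 in U. How these endoderm calls depend on the processing was not tested. Trophectoderm markers had medians of -0.30, 0.01 and 0 in SB, SP and U against WT, with 1 called lower, in SP (Elf5). All 8 were negative in SB minus WT and in SB minus U, where 2 were called lower (Eomes and Krt7). The Elf5 call was lost without SP replicate 1 or 3 or WT replicate 1 or 2 (adjusted p 0.124 to 0.198) and with the 430 2.0 arrays alone (adjusted p = 0.308). Median scaling, fitting only SP and WT, and leaving out the trend lost it too (adjusted p = 0.0693, 0.0829 and 0.321). The Eomes call was lost without SB replicate 2 or 3 or U replicate 2 or 3 (adjusted p 0.0801 to 0.154) and with median scaling (adjusted p = 0.245). Fitting only SB and U, and leaving out the trend, lost it too (adjusted p = 0.0692 and 0.219). Dnmt3l was lower in SB over these pairs, and the part of these cells in it was not tested.

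Few other genes of the pathway passed the test. Of 7 tested genes listed as readers of methylated or hemimethylated CpG (10 listed, such as Mbd1 and Mbd2), 0 were called in any comparison. Their medians were -0.08, -0.05 and -0.15 in SB, SP and U against WT. The 7 include Ctcf and Mbd3, which do not bind methylated CpG selectively. The 11 genes listed as partners of the methyltransferases include Trdmt1, which methylates tRNA. Of these 11, 0 were called against WT, with medians of 0.06, -0.02 and -0.06. Among them Pcna, the replication clamp that Dnmt1 binds, was higher in SB than in U by 0.46 ± 0.10 on the log2 scale (adjusted p = 0.0226). That call was lost without SB replicate 2 or 3 or U replicate 2 or 3 (adjusted p 0.152, 0.0697, 0.0532 and 0.0879). It was also lost with the 430 2.0 arrays alone (adjusted p = 0.0547), with only SB and U fitted (adjusted p = 0.0556) and without the intensity trend (adjusted p = 0.232). Prdm14, which represses the de novo genes in mouse embryonic stem cells, stood at 0.79 ± 0.32 in U against WT and was not called (adjusted p = 0.34). The 9 tested genes that act with Trim28 and Setdb1 had medians of -0.14, -0.04 and 0.01, with 0 called in any comparison. The 9 tested genes listed under oxidised base removal and repair had medians of 0.10, 0.01 and 0.06, and 1 was called. This was Gadd45b, which is not itself an enzyme of base removal. It was lower in SP than in U by a log2 difference of -1.05 ± 0.26 (adjusted p = 0.0358). That call was lost on leaving out any 1 of the 6 samples (adjusted p 0.0702 to 0.134), and kept in 6 of the 10 other alternatives. At an unadjusted p under 0.05 stood 3, 5 and 4 of the 36 tested genes of these lists in SB, SP and U against WT, beside 9.36, 8.52 and 12 percent of all probe sets.

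**Figure D4:**
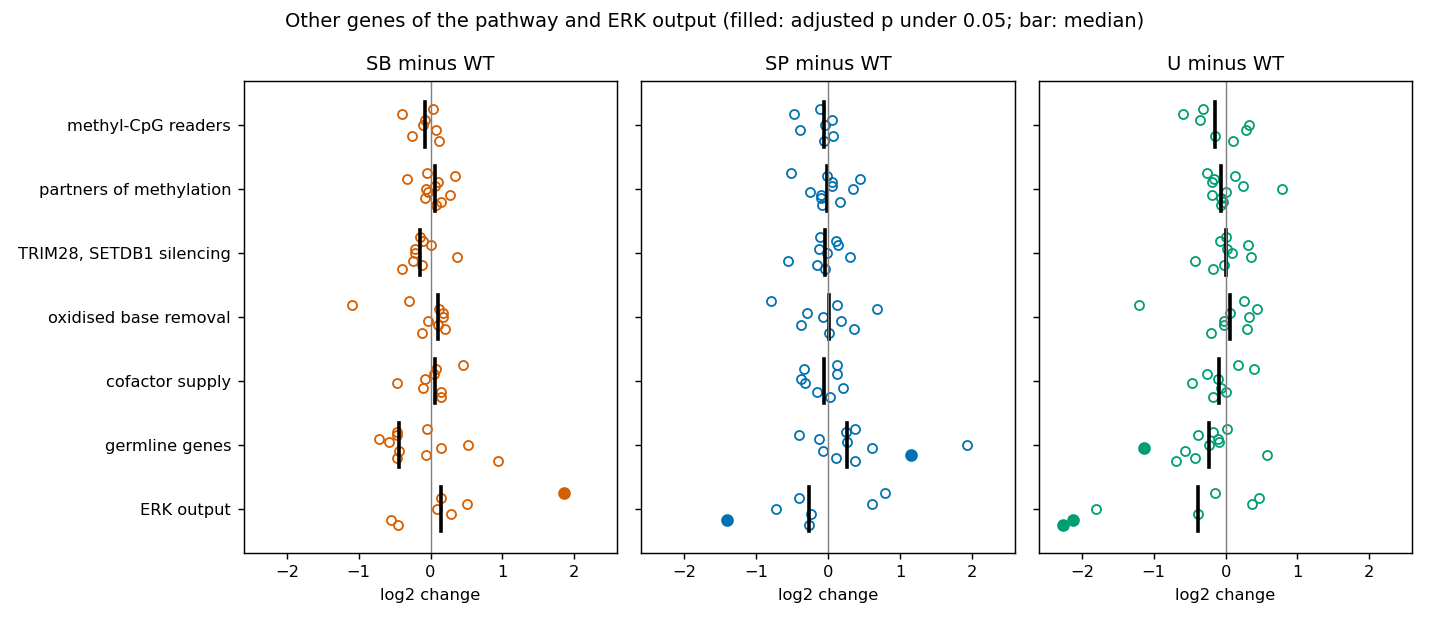
Log2 change against WT (x axis) of each tested gene (points, filled where the adjusted p was under 0.05) of the listed gene groups (rows), in 1 panel each for SB, SP and U, with the list medians as vertical bars. The readers, partners and Trim28 and Setdb1 associates have medians between -0.15 and 0.06 in all 3, and the ERK output genes have medians of 0.14 in SB, -0.27 in SP and -0.38 in U.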

How the data were processed

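The 16 arrays gave 12 samples, with the 430A and 430B arrays of a group's replicate 1 joined. The deposited values are linear signal intensities, 1 per probe set, which the authors had scaled to a mean of 500 on each array, computed without the top and bottom 2 percent, as the values of every array show. Their software, background correction and summary of probes: not given in the sources used here. Of 45037 probe sets, 34945 name 1 gene in the platform annotation, 932 several and 9160 none in it, and the 100 probe sets on both 430A and 430B were taken from 430A. An offset of 12.6 (the 20th percentile of the 430 2.0 values) was added and the log2 taken. The 27022 probe sets whose mean on the 430 2.0 arrays reached 42.9 (the 40th percentile) were tested in limma 3.58.1 (R 4.3.3) with group and array type, which goes with the labelling assay, as terms, and an intensity trend. The fit left 7 residual degrees of freedom. Tests were two-sided, with p-values Benjamini-Hochberg adjusted over all tested probe sets, and called under 0.05. The code was tested on simulated data with normal noise. In U minus WT it recovered 40 percent of log2 changes of size 1 and 84 percent of size 2. A gene not called may therefore still have changed. Array signal carries no counts, so precision is set by how many arrays there are.

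The members, gene lists and tests were chosen with earlier results of these data known. Full values are given for called probe sets and each member's brightest probe set, and for list genes that were called. Further member probe sets, and Prdm14, were named after their values were seen. A gene list is represented by each gene's brightest tested probe set. Same-numbered 430 2.0 arrays of different groups had deviations correlated at 0.02 to 0.09, so the replicate numbers were not taken as pairs. Alternatives covered the offset, filter, scaling, intensity trend, array type, samples in the fit, replicate block and leaving out each sample, and 1, averaging the probe sets of a gene, was chosen after seeing the data.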

Additional observations from a re-analysis of the deposited data

How the results depend on the processing

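The count of called members stayed at 0 in SB minus WT and U minus WT under all 16 alternatives. In SP minus U, the 1 call (Dnmt3l) became 0 with the 430 2.0 arrays alone, median scaling, no intensity trend, an offset of 1, or only the 2 groups compared, and leaving out 1 sample gave 0 to 1. In SB minus U, the count of 0 became 1 (Dnmt3l) with an offset of 50, quantile normalization or a stricter filter, and was 0 to 1 with 1 sample left out (1 without U replicate 2). In SB minus SP it became 1 (Dnmt3a 1423063_at) with an offset of 50, the replicate block or a stricter filter, and was 0 to 1 with 1 sample left out (1 without SB replicate 3). In SP minus WT it became 1 (Dnmt3l) with only the 2 groups compared, and 1 without WT replicate 3 (Dnmt3b 1418351_a_at, -0.75, adjusted p = 0.0422), a range of 0 to 1. The cause was not tested. With the replicate block, Dnmt3l in SP minus U kept its call (adjusted p = 0.0405). No value that was called in any setting turned its sign, while 199 of 2276 recomputed values of uncalled member changes did. Dnmt3l in U minus WT ran from -0.22 to 0.20, and the Dnmt3b probe sets in U minus WT from -0.52 to -0.28 and from -0.71 to -0.33.

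Over all probe sets, the calls moved by more than 1.5 times in 7 to 9 of 16 alternatives per comparison, between 1 and 140 in SB minus WT (105 as reported), 8 and 189 in SP minus WT (160), 2 and 187 in U minus WT (121), 23 and 318 in SB minus SP (213), 36 and 498 in SB minus U (371) and 130 and 1024 in SP minus U (791). The lowest counts came without the intensity trend. Median scaling changed the split of calls to 15 higher and 115 lower in U minus WT (47 and 74 as reported), 175 and 84 in SB minus U (144 and 227), 541 and 99 in SP minus U (389 and 402) and 15 and 114 in SB minus SP (61 and 152).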

Other observations

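Among germline genes, which promoter methylation keeps silent in somatic cells, Sycp3 rose with SP600125 and Mael fell with U0126. Of 11 tested genes (12 listed), 1 rose in SP against WT and 1 fell in U against WT, where 0.592 and 0.448 percent of all probe sets were called. The medians of the list were -0.44 in SB, 0.26 in SP and -0.23 in U, beside 0.01, 0 and 0.06 over all tested probe sets. They rest in part on dim probe sets. In WT, Tex101 read 58.2, 13.0 and 13.6, Taf7l 54.1, 45.2 and 53.2, and Tex11 35.3, 50.4 and 66.4. Sycp3, a component of the meiotic chromosome axis, read 387.6, 2135.9 and 3063.6 in SP, against 185.5, 1050.9 and 1138.7 in WT. Every SP value was above the WT values of its array type, with a log2 change of 1.15 ± 0.17 (limma adjusted p = 0.00328), called in 15 of 16 alternatives. The position above WT was not particular to SP: Sycp3 read 244.8, 1587.7 and 1908.2 in U. Every U value was also above the WT values of its array type, though not called. Mael, which acts with piRNAs to silence transposons in germ cells, read 430.0, 224.4 and 191.4 in U, against 714.0, 485.8 and 610.2 in WT. It fell by 1.13 ± 0.20 on the log2 scale (adjusted p = 0.0145). That call was lost with only the U and WT samples fitted (adjusted p = 0.12), without the intensity trend (adjusted p = 0.131), or without U replicate 2 or 3 or WT replicate 2 or 3 (adjusted p 0.0517, 0.0648, 0.0742 and 0.0821). SP minus U for Mael was 1.75 ± 0.20 (adjusted p = 0.0002), called in 16 of 16 alternatives. DNA methylation itself was not measured here.

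The list of cofactor supply covers methyl groups and the 2-oxoglutarate used by the Tet enzymes. Its 8 tested genes include Ogt, which supplies neither. Of these 8, limma called 0 against WT in SB, SP and U. At an unadjusted p under 0.05 stood 2, 2 and 3, beside 9.36, 8.52 and 12 percent of all probe sets. Idh2, the mitochondrial enzyme that makes 2-oxoglutarate, was lower in SP than in U by a log2 difference of -0.75 ± 0.12 (adjusted p = 0.00304). It read 1097.5, 2001.8 and 2205.2 in SP, against 1855.1, 3774.1 and 3293.2 in U. Its cytosolic counterpart Idh1 differed the other way, by 0.39 ± 0.10 (adjusted p = 0.0455). The Idh1 call was lost on leaving out any 1 of the 6 samples (adjusted p 0.0643 to 0.189), and kept in 5 of the 10 other alternatives. The Idh2 call was lost with median scaling (-0.60, adjusted p = 0.0529) and without the intensity trend (adjusted p = 0.0651).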
